A study of Homo sapiens with 26 samples.

Results

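The 36 genes described here encode aminoacyl tRNA synthetases and were chosen by gene symbol, out of 18165 genes in the first expression table and 17734 in the second. Of these, 18 encode cytosolic enzymes, 16 encode mitochondrial enzymes, and GARS1 and KARS1 each encode an enzyme used in both compartments. Expression was measured by RNA sequencing of LoVo, a human colorectal cancer cell line, in 26 libraries. The groups were the PIK3CA mutant lines E545K and H1047R, made with lentiviral vectors, and the wild-type (WT) line they came from. PIK3CA encodes p110 alpha, the catalytic part of a PI3 kinase.

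In the first table, of 18 libraries, each line was sampled in 0.5 µM palbociclib, a drug against the cell cycle kinases CDK4 and CDK6, in conditioned medium (CM) of senescent cells, and in DMSO. In the second table, of 8 libraries, both mutant lines were sampled in palbociclib with 4 µM erlotinib, an inhibitor of the EGF receptor kinase, and in palbociclib alone. Every group held 2 libraries. Palbociclib and DMSO lasted 72 hours and the combination 48 hours, per the labels. Per the labels, CM came from cells made senescent with palbociclib. The labels also state 48 hours for control-group cells, without saying whether these are the cells in CM. Which line made the CM is not given in the sources used here, nor how long the palbociclib-only libraries of the second table were treated. All cells were grown with 10% serum. The labels give 1 clone of each mutant line for the palbociclib experiment, so a difference between a mutant line and WT cannot be told apart from a difference between clones. Nothing says that the 2 libraries of a group came from separate cultures, so p-values measure only the spread between these libraries, which may be technical.

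Each synthetase except EPRS1, which serves both glutamate and proline, joins 1 amino acid to its tRNAs. This step fixes which amino acid a codon will give. Cytosolic and mitochondrial protein synthesis use largely separate enzymes, all of them encoded in the nucleus. Many cytosolic synthetase genes are targets of ATF4, a transcription factor that is made when eIF2 kinases sense a shortage of amino acids or stress in the endoplasmic reticulum. ATF4 acts with C/EBP proteins through a composite DNA element. WARS1, for tryptophan, is also a classic interferon gamma gene. Of the 20 cytosolic and shared members, 12 are textbook ATF4 targets: AARS1, CARS1, EPRS1, GARS1, IARS1, LARS1, MARS1, NARS1, SARS1, TARS1, WARS1 and YARS1.

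RefSeq promoter windows (GRCh38.p14, 250 bases before to 50 after a gene's start) were given for 30 of the 36 members, with 39 windows in all since some genes have several. Of the 12 ATF4 targets, 10 had a window, and 7 of these 10 (70%) held the letters of the C/EBP-ATF response element, TGATGNAA, on either strand. The same letters were found in 8 of the 30 members (26.7%), the eighth being YARS2, and in 4.46% of the 27305 genes with a window. The stretches are shown because most ATF4 targets, with or without these letters, were higher in E545K cells in the erlotinib comparison. The part of the element in those changes was not tested. Each is read on the gene's own strand, with the element, or its reverse complement, in capitals.
AARS1, chr16:70289675-70289704, minus strand: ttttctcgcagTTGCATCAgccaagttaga
CARS1, chr11:3057407-3057436, minus strand: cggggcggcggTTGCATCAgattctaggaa
GARS1, chr7:30594834-30594863, plus strand: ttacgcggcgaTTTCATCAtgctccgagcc
IARS1, chr9:92293692-92293721, minus strand: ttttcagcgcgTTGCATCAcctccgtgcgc
MARS1, chr12:57488053-57488082, plus strand: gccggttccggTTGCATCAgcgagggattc
NARS1, chr18:57621804-57621833, minus strand: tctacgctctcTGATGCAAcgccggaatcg
TARS1, chr5:33440956-33440985, plus strand: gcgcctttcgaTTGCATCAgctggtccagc

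The gamma-activated site, TTCNNNGAA, was found in 5 of the 30 members (16.7%) and in 9.38% of all genes with a window. The interferon-stimulated response element, a pair of GAAA runs spaced by NN, was found in 2 of the 30 (WARS1 and EARS2) and in 4.38% of all genes. WARS1 held both, and its stretches are shown because its level moved most among the cytosolic members in the first table.
WARS1, gamma-activated site, chr14:100375470-100375499, minus strand: gctcaagtgtTTCTGAGAAtctgggtgatt
WARS1, interferon-stimulated response element, chr14:100375383-100375412, minus strand: tttcagaaggGAAACTGAAAgaaagagggg
A match describes the letters alone, and factor binding was not measured. Both strands were searched for each motif, and overlapping matches of different motifs were each counted.

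The deposited values are FPKM, fragments per kilobase of transcript, scaled by the authors to the mapped total, so levels can be compared between genes per length. They sum to between 441643 and 524290 per library, and read depth is unknown. Replicates within a group correlated at 0.987 to 0.997 over tested genes. Libraries of H1047R cells in palbociclib stood apart, with a pooled SD between replicates of 0.232 on the log2 scale in the first table, against 0.087 to 0.116 in most groups. The SD was 0.170 for H1047R cells in DMSO and 0.166 for H1047R cells in palbociclib in the second table. Of 9 colorectal epithelial markers, 7 reached 1 FPKM in every library, and their summed level was 7036 to 16732 FPKM. Of 8 markers of leukocytes, endothelium and fibroblasts, 1 (CD68) reached 1 FPKM in every library, and their summed level was 26.4 to 70.9 FPKM. In bulk RNA, fewer cells of a kind and less RNA per cell cannot be told apart.

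All 36 members reached 1 FPKM in at least 2 libraries of each table and were tested. Cytosolic genes averaged 4.95 to 101 FPKM over the first table, with a median of 71.5 FPKM, and mitochondrial genes 2.92 to 59.6 FPKM, with a median of 13.0 FPKM. GARS1, for glycine, was the most abundant of all at 144 FPKM, and KARS1, for lysine, averaged 98.8 FPKM. The summed cytosolic level was 4.22 to 5.73 times the summed mitochondrial level in the first table. That ratio was highest in WT cells in DMSO (5.66 and 5.73) and lowest in H1047R cells in CM (4.28 and 4.24) and WT cells in CM (4.22 and 4.39), whose libraries overlap. In the second table it was 6.09 and 5.95 in E545K cells with erlotinib, against 4.59 and 4.53 in palbociclib alone. In H1047R cells it was 7.34 and 7.20 with erlotinib, against 6.74 and 6.86 in palbociclib alone.

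Most mitochondrial genes were lowest in WT cells in DMSO. The median of all genes tested was also lowest there within the first table, at 3.21 and 3.20 on the log2 scale. The share of all genes with their lowest group mean there was not counted. WT cells in DMSO held the lowest group mean for 13 of the 16 mitochondrial members, and WT cells in palbociclib for the other 3 (EARS2, SARS2 and YARS2). WT cells in DMSO were lowest for 10 of the 18 cytosolic members, and E545K cells in CM were highest for 8 of the 18. The ratio of the highest to the lowest group mean in the first table was 1.48 to 4.30 among cytosolic genes, with a median of 1.88. Among mitochondrial genes it was 1.23 (HARS2) to 9.75 (PARS2), with a median of 1.81. In the second table those ratios had medians of 1.27 for cytosolic and 1.31 for mitochondrial members.

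**Figure D1:**
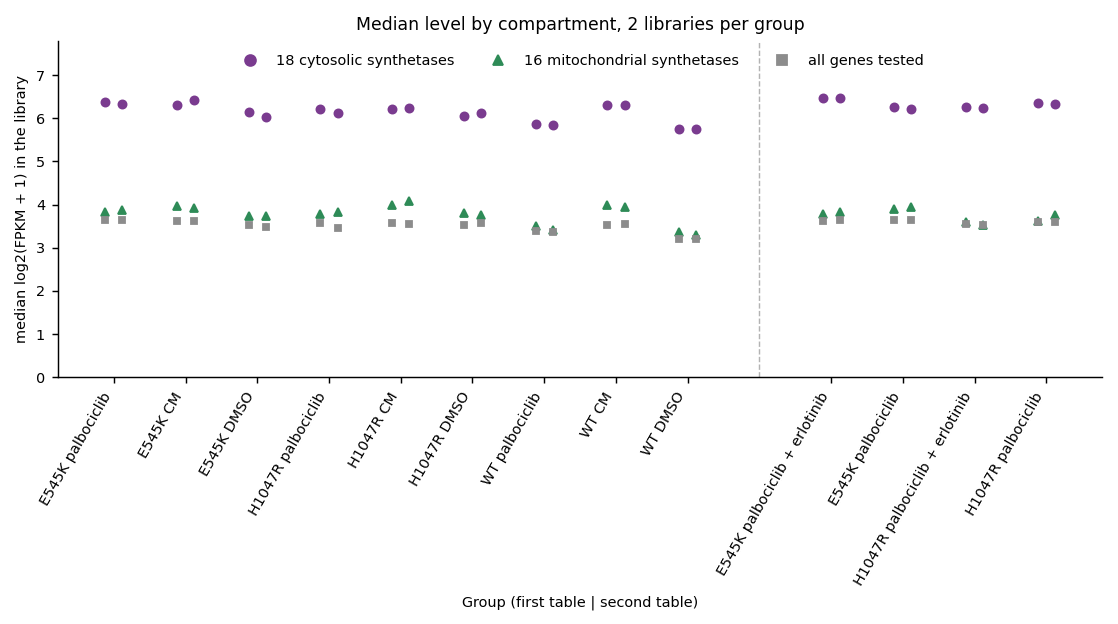
Median log2(FPKM + 1) of the 18 cytosolic synthetases (circles), the 16 mitochondrial synthetases (triangles) and all genes tested (squares) in each library, with the first table left of the dashed line. Both classes sit lowest in WT cells in DMSO and palbociclib within the first table, as does the median of all genes.

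KARS1, a member outside the ATF4 targets, was at 92.5 and 92.1 FPKM in E545K cells in palbociclib, 102 and 101 FPKM in CM, and 100.4 and 108 FPKM in DMSO. In H1047R cells it was 91.2 and 102 FPKM in palbociclib, 113 and 115 FPKM in CM, and 95.0 and 95.4 FPKM in DMSO. In WT cells it was 80.2 and 82.9 FPKM in palbociclib, 126 and 112 FPKM in CM, and 84.8 and 85.9 FPKM in DMSO. Among the WT libraries, those in CM were the highest and those in palbociclib the lowest, without overlap. In the second table KARS1 lay between 76.9 and 95.8 FPKM in all 8 libraries.

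GARS1, an ATF4 target, was at 153 and 146 FPKM in E545K cells in palbociclib, 180 and 194 FPKM in CM, and 155 and 153 FPKM in DMSO. In H1047R cells it was at 131 and 112 FPKM in palbociclib, 128 and 132 FPKM in CM, and 123 and 123 FPKM in DMSO. In WT cells it was at 125 and 126 FPKM in palbociclib, 141 and 134 FPKM in CM, and 164 and 171 FPKM in DMSO. WT cells had their highest GARS1 in DMSO, and E545K cells had theirs in CM.

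AARS1, for alanine, was at 84.9 and 86.7 FPKM in E545K cells in palbociclib, 112 and 123 FPKM in CM, and 87.6 and 91.7 FPKM in DMSO. In H1047R cells it was at 72.2 and 78.8 FPKM in palbociclib, 68.4 and 69.8 FPKM in CM, and 77.3 and 78.3 FPKM in DMSO. In WT cells it was at 87.8 and 93.5 FPKM in palbociclib, 74.5 and 78.2 FPKM in CM, and 80.5 and 83.1 FPKM in DMSO. E545K cells in CM stood above every other first-table library.

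Among cytosolic genes TARS1, for threonine, had the highest mean and its relative TARS3 the lowest. TARS1 was at 126 and 122 FPKM in E545K cells in palbociclib, 139 and 149 FPKM in CM, and 84.1 and 80.5 FPKM in DMSO. In H1047R cells it was at 110 and 85.9 FPKM in palbociclib, 117 and 109 FPKM in CM, and 89.4 and 97.7 FPKM in DMSO. In WT cells it was at 66.7 and 66.6 FPKM in palbociclib, 110 and 105 FPKM in CM, and 84.0 and 83.7 FPKM in DMSO. Palbociclib and DMSO libraries did not overlap in E545K and WT cells, and lay in opposite order in those lines. TARS3 was at 6.24 and 6.28 FPKM in E545K cells in palbociclib, 4.95 and 4.65 FPKM in CM, and 4.41 and 3.58 FPKM in DMSO. H1047R cells held 6.08 and 4.74 FPKM of TARS3 in palbociclib, 6.11 and 5.52 FPKM in CM, and 4.53 and 5.78 FPKM in DMSO. WT cells held 4.25 and 3.70 FPKM of TARS3 in palbociclib, 5.88 and 5.73 FPKM in CM, and 3.20 and 3.43 FPKM in DMSO. The WT libraries in DMSO were the lowest of the first table.

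Among mitochondrial genes IARS2, for isoleucine, had the highest mean and WARS2, for tryptophan, the lowest. IARS2 was at 67.3 and 67.3 FPKM in E545K cells in CM, 78.8 and 75.5 FPKM in H1047R cells in CM and 77.8 and 69.6 FPKM in WT cells in CM. In palbociclib it was at 58.8 and 56.3 FPKM in E545K cells, 58.5 and 40.1 FPKM in H1047R cells, and 50.9 and 49.2 FPKM in WT cells. In DMSO it was at 54.9 and 51.6 FPKM in E545K cells, 65.6 and 65.2 FPKM in H1047R cells, and 42.2 and 43.7 FPKM in WT cells. CM libraries lay above DMSO libraries in each line. WARS2 was at 3.66 and 3.43 FPKM in E545K cells in palbociclib, 3.16 and 3.19 FPKM in CM, and 2.33 and 2.67 FPKM in DMSO. H1047R cells held 3.28 and 2.73 FPKM of WARS2 in palbociclib, 3.13 and 3.04 FPKM in CM, and 3.19 and 3.47 FPKM in DMSO. WT cells held 2.64 and 2.25 FPKM of WARS2 in palbociclib, 3.17 and 2.98 FPKM in CM, and 2.32 and 1.95 FPKM in DMSO. It lay between 3.10 and 4.23 FPKM in the second table, so its changes rest on low values.

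Changes below are limma differences of log2(FPKM + 1), with Benjamini-Hochberg adjustment over all genes tested (12607 in the first table, 12463 in the second) and a call below 0.05. The median of all genes itself differed between groups, being 0.25 higher in E545K and 0.26 higher in H1047R than in WT cells in DMSO. In WT cells it was 0.14 higher in palbociclib and 0.29 higher in CM than in DMSO, and in the other direct comparisons it moved by under 0.1. Each change is therefore also given relative to that median, as the relative log2 change, while the adjusted p belongs to the unshifted change. A fold on this scale understates the change of low genes such as PARS2. The 4 genotype and treatment comparisons that use WT cells in DMSO share those 2 libraries, and likewise within each mutant line. Their counts are therefore not independent. The differences between a mutant line's response and that of WT cells also contain those 2 WT libraries. A shift in these libraries enters every such difference.

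**Figure D2:**
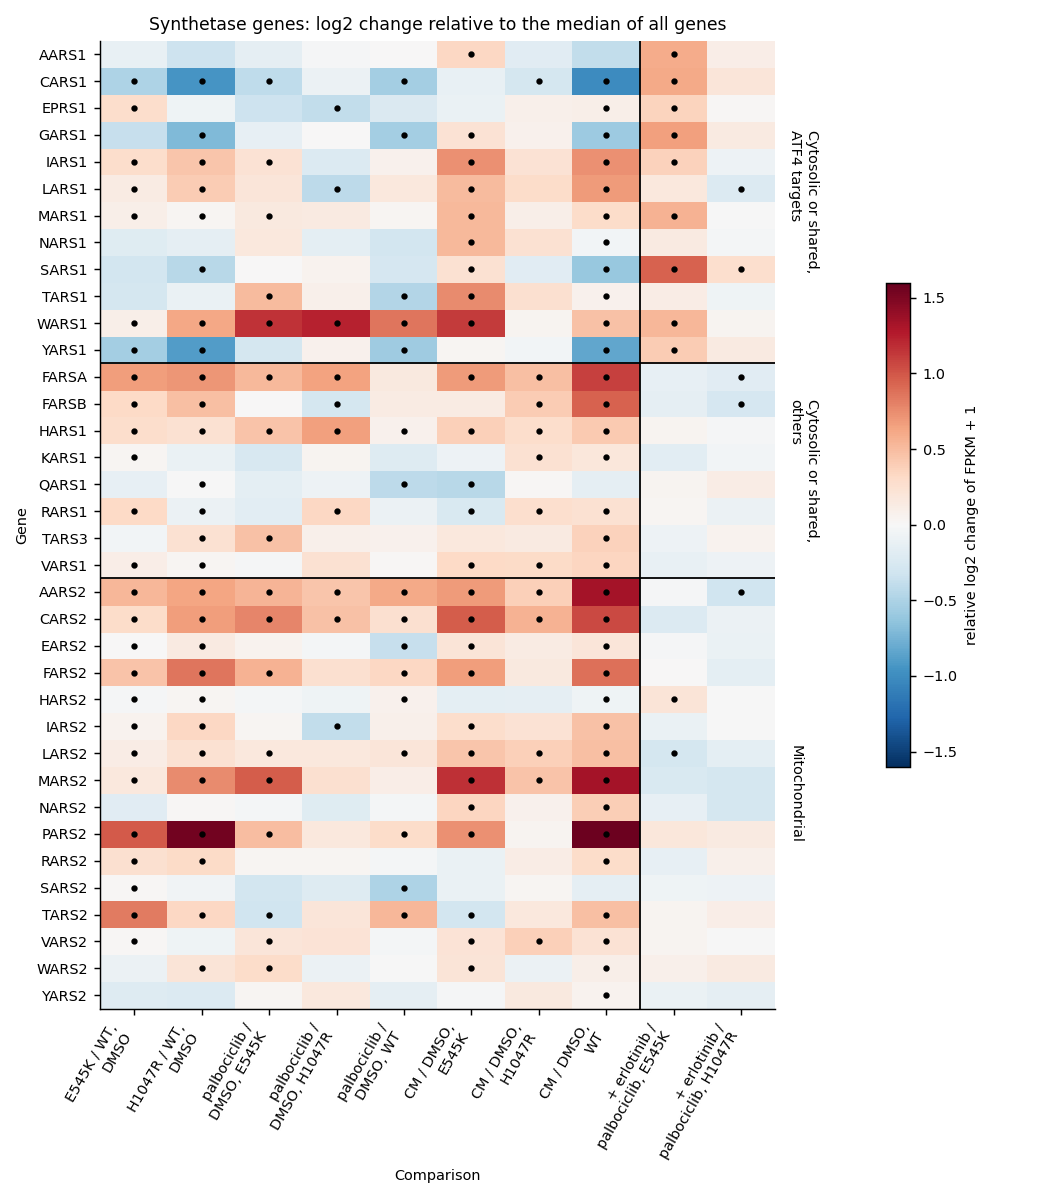
Relative log2 change of each member (rows, grouped as ATF4 targets, other cytosolic or shared genes, and mitochondrial genes) in the 10 direct comparisons (columns, first table left of the line), red higher and blue lower. Dots mark limma adjusted p below 0.05, and the reds of WARS1, PARS2, AARS2 and MARS2 and the blues of CARS1 and YARS1 are among the deepest.

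Before scaling, mitochondrial synthetases were mostly higher in the mutant lines than in WT cells in DMSO, and a few ATF4-target synthetases lower. The mitochondrial members did not stand apart in E545K cells. There the cytosolic median change was 0.01 above the mitochondrial one on the log2 scale, and 0.13 above it after quantile normalization. In E545K cells 24 of 36 members rose (66.7%, against 48.4% of all genes tested) and 2 fell (5.6%, against 10.4% of all genes). By class, 13 of 16 mitochondrial members rose and 0 fell in limma (also 0 at an unadjusted p below 0.05), against 4 higher and 1 lower after centring each library on its median. Of the ATF4 targets 5 rose and 2 fell (1 and 6 after centring), with a median relative change of -0.16, and 6 of the 8 other cytosolic or shared members rose. Over all members, centring gave 9 higher and 7 lower, and quantile normalization 14 and 2. Without the first E545K library or the second WT library 0 were lower.

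PARS2, the mitochondrial enzyme for proline, was at 2.56 and 2.60 FPKM in E545K cells, against 0.58 and 0.47 FPKM in WT cells. TARS2, for threonine in mitochondria, was at 23.3 and 23.9 FPKM in E545K cells, against 10.8 and 10.4 FPKM in WT cells. FARSA, the catalytic subunit of the cytosolic phenylalanine enzyme, was at 28.1 and 32.1 FPKM in E545K cells, against 15.2 and 15.6 FPKM in WT cells. No library of one line reached the other for these 3 genes, and the relative log2 changes were 0.98 ± 0.10 (SE), 0.83 ± 0.08 and 0.67 ± 0.12, with limma adjusted p of 2.38e-07, 6.39e-08 and 1.2e-05. YARS1, for tyrosine, fell to 95.5 and 104 FPKM in E545K cells, against 117 and 127 FPKM in WT cells. CARS1, for cysteine, fell to 44.4 and 46.0 FPKM in E545K cells, against 53.6 and 54.0 FPKM in WT cells. Their relative changes were -0.54 and -0.50, with limma adjusted p of 0.00905 and 0.011. The YARS1 call was lost without the first E545K library in DMSO (adjusted p 0.0865) and the CARS1 call on a TPM scale (adjusted p 0.122). WARS1 was at 47.3 and 50.4 FPKM in E545K cells, against 38.0 and 38.2 FPKM in WT cells, a relative change of 0.10 whose limma adjusted p of 0.000407 became 0.610 after centring. KARS1 rose with a limma adjusted p of 0.00294, but its log2 change of 0.28 became -0.01 after centring (adjusted p 0.917).

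In H1047R cells 23 of 36 members rose (63.9%, against 49.9% of all genes tested) and 4 fell (11.1%, against 17.5% of all genes). Median-centring gave 13 higher and 9 lower, and RARS1, called higher at a log2 change of 0.17 (limma adjusted p 0.0334), was called lower after centring at -0.17. Of the 16 mitochondrial members 12 rose, with a median relative change of 0.27, and 0 fell in limma (0 at an unadjusted p below 0.05), against 8 higher and 1 lower after centring. The cytosolic median change was 0.26 below the mitochondrial one on the log2 scale, and 0.03 below it after quantile normalization. Of the ATF4 targets 4 rose and 4 fell (3 and 7 after centring), and the 4 that fell were CARS1, YARS1, GARS1 and SARS1.

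PARS2 was at 4.74 and 3.90 FPKM in H1047R cells, against 0.58 and 0.47 FPKM in WT cells (relative change 1.54 ± 0.10, SE, limma adjusted p 2.4e-09). FARS2, the mitochondrial phenylalanine enzyme, was at 6.08 and 5.77 FPKM in H1047R cells, against 1.90 and 2.49 FPKM in WT cells (0.86 ± 0.15, limma adjusted p 9.2e-06). MARS2, the mitochondrial methionine enzyme, was at 6.94 and 7.33 FPKM in H1047R cells, against 2.84 and 3.18 FPKM in WT cells (0.76 ± 0.11, limma adjusted p 1.9e-06). All 3 are low-abundance mitochondrial enzymes, and their libraries did not overlap between lines. CARS1 fell to 33.1 and 33.2 FPKM in H1047R cells, against 53.6 and 54.0 FPKM in WT cells (-0.94, limma adjusted p 1.53e-06). YARS1 fell to 77.5 and 78.3 FPKM in H1047R cells, against 117 and 127 FPKM in WT cells (-0.90, limma adjusted p 1.01e-05). GARS1 fell to 123 and 123 FPKM in H1047R cells, against 164 and 171 FPKM in WT cells (-0.70, limma adjusted p 9.47e-05). In these genes every H1047R library lay below every WT library, whereas WARS1 rose to 74.4 and 67.4 FPKM, against 38.0 and 38.2 FPKM in WT cells (0.62, limma adjusted p 3.42e-08).

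The genes of ATF4 and amino acid supply (28 genes, among them ATF4 itself, stress factors, enzymes of serine, proline and asparagine synthesis, and amino acid carriers) were lower in the mutants relative to the median. Of these 28, 8 rose and 10 fell in E545K cells (against 48.4% and 10.4% of all genes tested), with a median relative change of -0.34. In H1047R cells 6 rose and 17 fell (against 49.9% and 17.5% of all genes), with a median of -0.75. Centring gave 1 higher and 16 lower in E545K and 3 and 20 in H1047R cells, and quantile normalization 4 and 13 in E545K and 3 and 16 in H1047R cells. ATF4 fell to 384 FPKM in E545K cells and 329 FPKM in H1047R cells, against 508 FPKM in WT cells.

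The smaller lists stand beside the same shares of all genes before scaling, 48.4% higher and 10.4% lower in E545K and 49.9% and 17.5% in H1047R cells. Of 8 mitochondrial translation factors, 5 rose and 1 fell in E545K cells (2 and 2 after centring, 3 and 2 after quantile normalization). In H1047R cells 6 rose and 0 fell in limma (4 and 1 after centring). TSFM, an exchange factor of mitochondrial elongation, was at 23.3 FPKM in E545K and 34.0 FPKM in H1047R cells, against 16.2 FPKM in WT cells. Of the 13 partners of tRNA charging, 9 rose and 2 fell in each mutant line. After centring these were 3 and 3 in E545K and 6 and 3 in H1047R cells, and after quantile normalization 4 and 3 in E545K and 6 and 3 in H1047R cells. Of 6 cytosolic elongation factors, 0 rose and 5 fell in E545K and 0 rose and 4 fell in H1047R cells in limma, but quantile normalization gave 2 and 2 in E545K and 2 and 0 in H1047R cells. Of the 7 eIF2 kinases and phosphatase subunits, 5 rose and 2 fell in E545K cells and 4 rose and 3 fell in H1047R cells, against 2 and 2 in E545K and 2 and 3 in H1047R cells after centring.

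Palbociclib raised WARS1 in all 3 lines. WARS1 was at 118 and 115 FPKM in E545K cells in palbociclib, against 47.3 and 50.4 FPKM in DMSO. In H1047R cells it was at 165 and 163 FPKM in palbociclib, against 74.4 and 67.4 FPKM in DMSO. In WT cells it was at 73.3 and 80.4 FPKM in palbociclib, against 38.0 and 38.2 FPKM in DMSO. The groups were far apart in each line, with relative log2 changes of 1.16, 1.23 and 0.85 (SE 0.07 each) and limma adjusted p of 3.68e-09, 1.07e-08 and 2.01e-07. The call held under all 11 alternatives tried in each line.

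**Figure D3:**
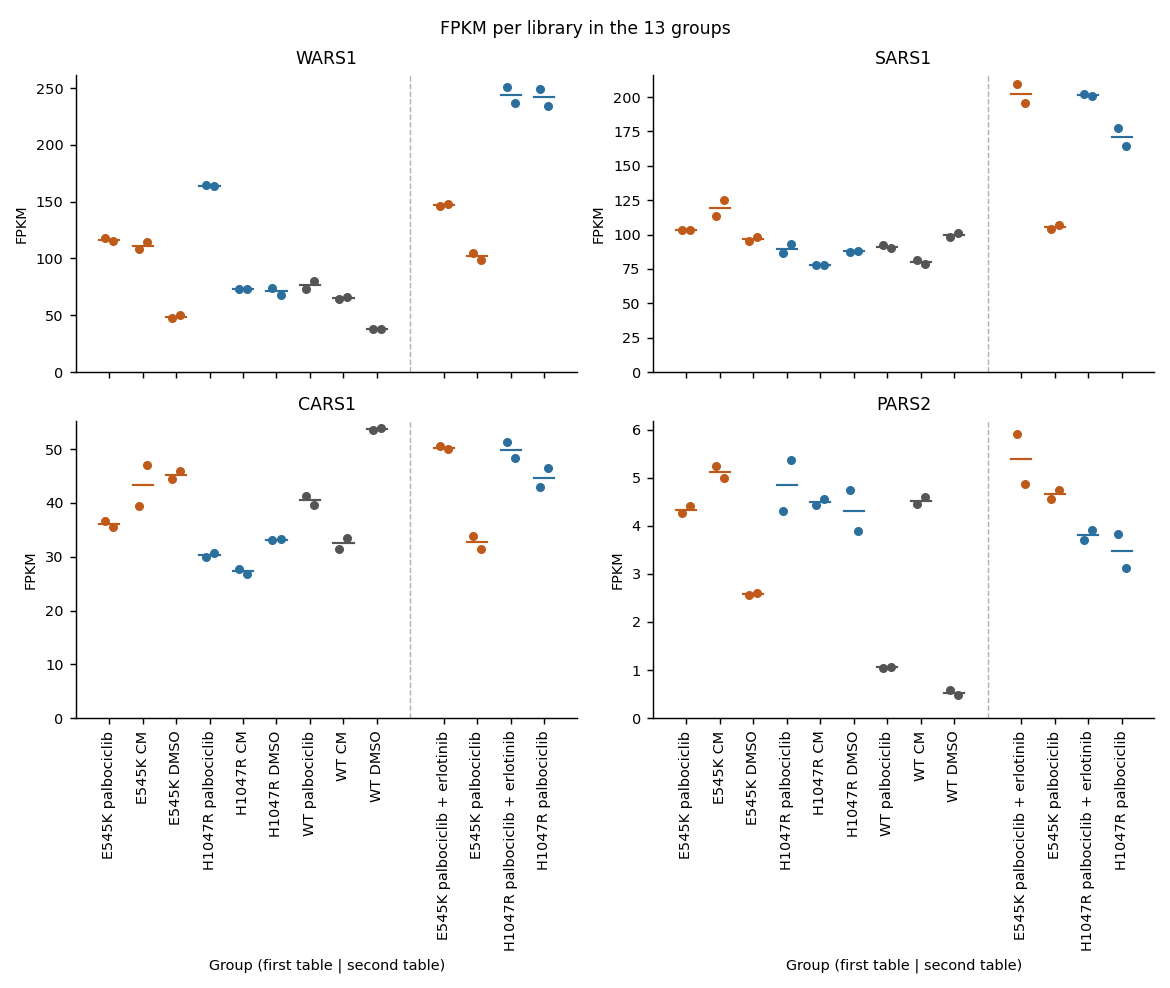
FPKM of WARS1, SARS1, CARS1 and PARS2 in each library (points, with the group mean as a bar) for E545K (orange), H1047R (blue) and WT (grey) cells, the second table right of the dashed line. WARS1 is above its DMSO level in every palbociclib group of the first table, SARS1 in the second table lies near 105 FPKM in E545K cells in palbociclib alone and near 200 FPKM with erlotinib, and PARS2 is below 1.1 FPKM in WT cells in DMSO and palbociclib.

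Interferon gamma genes moved in the same comparisons. Of 9 tested, 8 rose in palbociclib in each line, and 1 (GBP2) fell in E545K cells. Of all genes tested, 32.9% rose in E545K, 19.5% in H1047R and 27.2% in WT cells, and 19.3% fell in E545K cells. IRF1, a transcription factor induced by interferon gamma, was at 57.8 FPKM in H1047R cells, 35.8 FPKM in E545K cells and 20.9 FPKM in WT cells in palbociclib. It is 1 of the 9, and the levels of the others are not given here. Whether these genes and WARS1 were linked was not tested.

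The other members called in palbociclib are given line by line. In E545K cells 15 of 36 members rose (41.7%, against 32.9% of all genes tested) and 2 fell (5.6%, against 19.3% of all genes). Median-centring gave 11 higher and 7 lower, and quantile normalization 13 and 4, and 1 was lower without either DMSO library. MARS2 rose to 9.72 and 10.4 FPKM in palbociclib, against 4.19 and 4.51 FPKM in DMSO (relative change 0.97, limma adjusted p 3.53e-06). CARS2, the mitochondrial cysteine enzyme, rose to 23.2 and 25.0 FPKM in palbociclib, against 12.6 and 12.9 FPKM in DMSO (0.79, limma adjusted p 9.07e-07). The cytosolic CARS1 went the other way, falling to 36.6 and 35.5 FPKM in palbociclib, against 44.4 and 46.0 FPKM in DMSO (-0.40, limma adjusted p 0.00237). TARS2 fell to 20.2 and 19.6 FPKM in palbociclib, against 23.3 and 23.9 FPKM in DMSO (-0.32, limma adjusted p 0.0189), a call lost under 3 of 11 alternatives, with adjusted p up to 0.0935.

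In WT cells 9 members rose in palbociclib (25.0%, against 27.2% of all genes tested) and 7 fell (19.4%, against 6.77% of all genes). Median-centring gave 3 higher and 9 lower, quantile normalization 4 and 6, and a fit of these 2 groups alone 17 higher. The 7 became 3 without the first palbociclib library or the second DMSO library, and 4 without the second palbociclib library. Of the mitochondrial members 7 rose and 2 fell, against 2 and 2 under either scaling. AARS2, the mitochondrial alanine enzyme, rose to 3.80 and 4.63 FPKM in palbociclib, against 1.94 and 2.29 FPKM in DMSO (relative change 0.60, limma adjusted p 6.34e-05). TARS2 rose to 16.2 and 18.8 FPKM in palbociclib, against 10.8 and 10.4 FPKM in DMSO (0.53, limma adjusted p 2.19e-05). Of the ATF4 targets 1 rose (WARS1) and 4 fell (YARS1, GARS1, CARS1 and TARS1), against 2 and 3 after quantile normalization. YARS1 fell to 88.2 and 92.1 FPKM in palbociclib, against 117 and 127 FPKM in DMSO (-0.57, limma adjusted p 0.00143). GARS1 fell to 125 and 126 FPKM in palbociclib, against 164 and 171 FPKM in DMSO (-0.55, limma adjusted p 0.000811). CARS1 fell to 41.4 and 39.6 FPKM in palbociclib, against 53.6 and 54.0 FPKM in DMSO (-0.54, limma adjusted p 0.000982). In each of these genes both palbociclib libraries lay below both DMSO libraries. Of the 28 genes of ATF4 and amino acid supply, 2 rose and 16 fell in WT cells (against 27.2% and 6.77% of all genes). In E545K cells 8 rose and 9 fell (against 32.9% and 19.3%), and in H1047R cells 8 rose and 8 fell (against 19.5% and 19.8%). Centring gave 0 and 18 in WT, 6 and 11 in E545K and 8 and 5 in H1047R cells, and quantile normalization 0 and 16 in WT cells.

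In H1047R cells 6 members rose in palbociclib (16.7%, against 19.5% of all genes tested) and 4 fell (11.1%, against 19.8% of all genes). HARS1, for histidine, rose to 78.9 and 90.0 FPKM in palbociclib, against 55.3 and 53.3 FPKM in DMSO (relative change 0.65, limma adjusted p 1.72e-05). FARSA rose to 43.2 and 53.8 FPKM in palbociclib, against 34.6 and 27.7 FPKM in DMSO (0.65, limma adjusted p 0.000944). LARS1, for leucine, was called lower at 64.6 and 40.9 FPKM in palbociclib, against 65.1 and 75.7 FPKM in DMSO (-0.42, limma adjusted p 0.0229). IARS2 was called lower at 58.5 and 40.1 FPKM in palbociclib, against 65.6 and 65.2 FPKM in DMSO (-0.40, limma adjusted p 0.0115). EPRS1, which charges both glutamate and proline tRNAs, was called lower at 53.1 and 37.5 FPKM in palbociclib, against 55.6 and 64.4 FPKM in DMSO (-0.39, limma adjusted p 0.0143). In these 3 genes the second palbociclib library was the lower, and the first lay nearer to DMSO.

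Without the second palbociclib library all 4 lower calls were lost, with a LARS1 adjusted p of 0.340, and 1 other member was called lower. Without the second DMSO library 0 were called lower. Without the first palbociclib library 10 members were called higher. Quantile normalization gave 6 higher and 7 lower, and a fit of these 2 groups alone gave 1 and 0. The 2 palbociclib libraries differed by transcript length. With genes split by transcript length into 4 equal bins, the second minus the first had median log2 differences of 0.19 in the shortest bin, 0.03 and -0.11 in the middle bins and -0.28 in the longest bin. The 2 DMSO libraries of H1047R cells differed the other way, by -0.07 in the shortest bin and 0.12 in the longest. LARS1, IARS2 and EPRS1 have longest transcripts of 4766, 3560 and 5014 bases, and differed between the palbociclib libraries by -0.65, -0.54 and -0.49. FARSA and HARS1, called higher, have longest transcripts of 2057 and 3494 bases and differed between the palbociclib libraries by 0.31 and 0.19. The part of length in these calls was not tested.

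The difference between responses was tested for each mutant line against WT cells. For palbociclib in E545K minus WT, 6 members were higher (16.7%, against 10.9% of all genes tested) and 1 lower (2.8%, against 14.7% of all genes). TARS1 had the largest positive relative difference, 0.96, and TARS2 the most negative, -0.86. The 6 became 3 without the first E545K library in palbociclib, the second WT library in DMSO, or either WT library in palbociclib. For H1047R minus WT, 4 were higher (11.1%, against 5.16% of all genes) and 6 lower (16.7%, against 17.4% of all genes). Those counts were 8 and 1 after centring, 2 and 6 after quantile normalization and 0 and 0 with only the groups compared, so no direction is stated. Leaving out single libraries gave 0 to 7 higher and 2 to 8 lower.

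Synthetase genes were widely higher in WT cells in CM than in DMSO, apart from a set of ATF4 targets. The labels do not settle the hours in CM, nor whether palbociclib was left in it. Effects of these cannot be told apart from one of CM, in any line. The 2 WT libraries in DMSO also held the lowest mean of the first table for 13 of the 16 mitochondrial members. In WT cells 29 of 36 members rose (80.6%, against 51.9% of all genes tested) and 4 fell (11.1%, against 18.6% of all genes). Of 16 mitochondrial members 15 rose, with a median relative change of 0.43, and 13 of 18 cytosolic members rose, with a median of 0.27. PARS2 rose to 4.45 and 4.60 FPKM in CM, against 0.58 and 0.47 FPKM in DMSO (relative change 1.57 ± 0.10, SE, limma adjusted p 1.24e-09). AARS2 rose to 8.75 and 8.41 FPKM in CM, against 1.94 and 2.29 FPKM in DMSO (1.33, limma adjusted p 2.56e-09). MARS2 rose to 12.5 and 10.3 FPKM in CM, against 2.84 and 3.18 FPKM in DMSO (1.33, limma adjusted p 1.33e-08). Both CM libraries of these scarce mitochondrial enzymes lay far above the DMSO libraries.

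The 4 genes that fell in WT cells were CARS1, YARS1, SARS1 and GARS1, all ATF4 targets, while 7 of the other 8 targets rose. CARS1 fell to 31.5 and 33.5 FPKM in CM, against 53.6 and 54.0 FPKM in DMSO (-1.003, limma adjusted p 8.06e-07). YARS1 fell to 81.9 and 84.4 FPKM in CM, against 117 and 127 FPKM in DMSO (-0.84, limma adjusted p 4.01e-05). SARS1, for serine, fell to 81.7 and 78.4 FPKM in CM, against 98.0 and 101 FPKM in DMSO (-0.60, limma adjusted p 0.000376). The CM libraries lay below the DMSO libraries in each. GARS1 fell to 141 and 134 FPKM in CM, against 164 and 171 FPKM in DMSO (-0.58, limma adjusted p 0.00313), a call lost on the TPM scale (adjusted p 0.106). WARS1 rose to 64.7 and 65.7 FPKM in CM, against 38.0 and 38.2 FPKM in DMSO (0.47, limma adjusted p 1.15e-07). KARS1 rose to 126 and 112 FPKM in CM, against 84.8 and 85.9 FPKM in DMSO (0.18, limma adjusted p 2.4e-05, and an adjusted p of 0.210 after centring). After centring 4 ATF4 targets were higher and 5 lower, and 20 and 5 of all members.

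Of 28 genes of ATF4 and amino acid supply, 6 rose and 16 fell in WT cells in CM (3 and 18 after centring), with a median relative change of -0.59. For this and the next lists, the shares of all genes tested were 51.9% higher and 18.6% lower before scaling. DDIT3, a stress factor downstream of ATF4, fell to 17.4 FPKM in CM, against 70.7 FPKM in DMSO, and CHAC1, a glutathione-degrading enzyme of the same response, to 13.1 FPKM in CM, against 37.1 FPKM in DMSO. Of 13 charging partners 10 rose and 2 fell. AIMP2, a scaffold of the multisynthetase complex, was at 33.0 FPKM in CM, against 11.4 FPKM in DMSO. Of the 7 enzymes of that complex 6 rose, and of 8 mitochondrial translation factors 6 rose, with 0 falling in limma in either list. Of 9 interferon gamma genes 5 rose and 3 fell.

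In E545K cells in CM, 23 members rose (63.9%, against 32.4% of all genes tested) and 3 fell (8.3%, against 24.9% of all genes). Here 9 of the 12 ATF4 targets rose, with a median relative change of 0.42, and 0 fell in limma (0 at an unadjusted p below 0.05). Centring left 7 of the 9, losing SARS1 and GARS1. Of the 16 mitochondrial members 11 rose and 1 fell, against 6 and 2 after centring and 7 and 2 after quantile normalization. MARS2 rose to 11.9 and 10.9 FPKM in CM, against 4.19 and 4.51 FPKM in DMSO (1.17, limma adjusted p 5.44e-07). WARS1 rose to 108 and 114 FPKM in CM, against 47.3 and 50.4 FPKM in DMSO (1.12, limma adjusted p 4.24e-09). CARS2 rose to 27.5 and 26.3 FPKM in CM, against 12.6 and 12.9 FPKM in DMSO (0.97, limma adjusted p 1.12e-07). Both CM libraries lay well above both DMSO libraries in each of these genes. AARS1 rose to 112 and 123 FPKM in CM, against 87.6 and 91.7 FPKM in DMSO (0.33, limma adjusted p 0.000197). GARS1 rose to 180 and 194 FPKM in CM, against 155 and 153 FPKM in DMSO (0.23, limma adjusted p 0.00531, and 0.0823 after centring).

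The 3 that fell in E545K cells were QARS1, TARS2 and RARS1, and 1 was lower without the first CM library, without the second DMSO library or on the TPM scale. QARS1, for glutamine, fell to 75.9 and 82.1 FPKM in CM, against 100.2 and 108 FPKM in DMSO (-0.44, limma adjusted p 0.000688). TARS2 fell to 18.7 and 20.7 FPKM in CM, against 23.3 and 23.9 FPKM in DMSO (-0.30, limma adjusted p 0.0124, and 0.137 without the first CM library). RARS1, for arginine, fell to 75.6 and 74.9 FPKM in CM, against 85.4 and 86.9 FPKM in DMSO (-0.24, limma adjusted p 0.0222), a call lost under 5 of 11 alternatives. Of the 28 ATF4 and supply genes 11 rose and 6 fell, against 32.4% and 24.9% of all genes tested. The factor ATF4 itself fell to 324 FPKM in CM, against 384 FPKM in DMSO. CHAC1 rose to 38.1 FPKM in CM, against 19.6 FPKM in DMSO. Of 9 interferon gamma genes 8 rose and 1 fell. Their part in the WARS1 change was not tested.

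In H1047R cells in CM, 11 members rose (30.6%, against 8.65% of all genes tested) and 1 fell (2.8%, against 5.97% of all genes). The 11 held 5 cytosolic members, 5 mitochondrial members and KARS1. CARS2 rose to 25.5 and 25.7 FPKM in CM, against 17.4 and 16.5 FPKM in DMSO (0.56, limma adjusted p 0.000687), and its call held under all 11 alternatives. FARSA rose to 41.5 and 46.8 FPKM in CM, against 34.6 and 27.7 FPKM in DMSO (0.49, limma adjusted p 0.0118). MARS2 rose to 10.8 and 9.57 FPKM in CM, against 6.94 and 7.33 FPKM in DMSO (0.45, limma adjusted p 0.0153). Both of these were lost under 3 of 11 alternatives. CARS1 fell to 27.7 and 26.9 FPKM in CM, against 33.1 and 33.2 FPKM in DMSO (-0.28, limma adjusted p 0.0248), a call lost under 5 alternatives. KARS1 rose to 113 and 115 FPKM in CM, against 95.0 and 95.4 FPKM in DMSO (0.25, limma adjusted p 0.0224), a call lost under 6. WARS1 was not called, at 73.1 and 73.5 FPKM in CM and 74.4 and 67.4 FPKM in DMSO. Of the ATF4 targets 0 rose (3 at an unadjusted p below 0.05) and 1 fell in limma. Leaving out any 1 of the 4 libraries gave 4 to 6 higher and 0 lower, and a fit of the 2 groups alone gave 3 and 0. Quantile normalization gave 9 higher and 3 lower. Of the interferon gamma genes 2 rose and 0 fell, and of the ATF4 and supply genes 1 rose and 9 fell.

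The response to CM in E545K cells differed from that in WT cells, with 7 ATF4 targets higher in the difference. The WT libraries in DMSO enter this difference, and CARS1, YARS1, SARS1 and GARS1 were also lower in H1047R than in WT cells in DMSO. A shift in those WT libraries cannot be told apart here from a response of the line to CM. In E545K minus WT, 7 members were higher (19.4%, against 10% of all genes tested) and 16 lower (44.4%, against 37.1% of all genes). All 7 higher ones were ATF4 targets, CARS1, YARS1, SARS1, GARS1, AARS1, TARS1 and WARS1, with relative differences of 0.64 to 0.87. Of the 16 lower ones 9 were mitochondrial, and 6 were among the 8 cytosolic or shared members outside the ATF4 targets. The remaining lower one was EPRS1, an ATF4 target, a call lost after centring and after quantile normalization. The 9 of 16 mitochondrial members became 4 after either centring or quantile normalization. PARS2 had the most negative relative difference, -0.86. After centring 8 were higher and 6 lower, and after quantile normalization 7 and 9, and the ATF4 targets stood at 8 higher and 0 lower and at 7 and 0. Leaving out the first CM library of either line left 10 lower. Of the 28 ATF4 and supply genes 16 were higher and 2 lower.

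In H1047R minus WT, 3 members were higher (8.3%, against 10.4% of all genes tested) and 22 lower (61.1%, against 40.5% of all genes). The 3 were YARS1, CARS1 and GARS1, all ATF4 targets. In all, 7 ATF4 targets were called, and the rest of them were lower. The 22 held 13 of the 16 mitochondrial members, led by PARS2 at -1.53. After centring 5 were higher and 9 lower, and the median of all genes was itself 0.27 lower in this difference. WARS1 was lower by a log2 difference of -0.71 (limma adjusted p 2.58e-05, and 0.0173 after centring).

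ATF4-target synthetases were higher in E545K cells in palbociclib with erlotinib than in palbociclib alone. How long the palbociclib-only libraries of the second table were treated is not given in the sources used here. An effect of treatment time therefore cannot be told apart from one of erlotinib, in either mutant line. Of 36 members 10 rose (27.8%, against 7.1% of all genes tested) and 1 fell (2.8%, against 9.11% of all genes). Of the 12 ATF4 targets 9 rose and 0 fell in limma, all 12 had relative changes above 0, and their median was 0.47. Of the 8 other cytosolic or shared members 0 were called in either direction in limma (0 higher and 2 lower at an unadjusted p below 0.05). Of the 16 mitochondrial members 1 rose (HARS2, for histidine) and 1 fell (LARS2, for leucine), against 1 and 2 after centring.

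SARS1 rose to 210 and 195 FPKM with erlotinib, against 104 and 107 FPKM in palbociclib alone (relative change 0.94 ± 0.05, SE, limma adjusted p 8.56e-05). GARS1 rose to 208 and 210 FPKM with erlotinib, against 134 and 131 FPKM in palbociclib alone (0.66 ± 0.04, limma adjusted p 0.000125). CARS1 rose to 50.5 and 50.0 FPKM with erlotinib, against 33.9 and 31.5 FPKM in palbociclib alone (0.61 ± 0.06, limma adjusted p 0.000892). In each gene both combination libraries lay well above both palbociclib libraries. AARS1 rose to 123 and 117 FPKM with erlotinib, against 81.4 and 76.9 FPKM in palbociclib alone (0.60, limma adjusted p 0.000552). WARS1 rose to 146 and 148 FPKM with erlotinib, against 105 and 98.5 FPKM in palbociclib alone (0.53, limma adjusted p 0.000939). MARS1, YARS1, IARS1 and EPRS1 also rose, by 0.56, 0.41, 0.37 and 0.35, and LARS1, NARS1 and TARS1 were not called. LARS2 fell to 12.9 and 12.9 FPKM with erlotinib, against 15.7 and 16.3 FPKM in palbociclib alone (-0.29, limma adjusted p 0.0186), a call lost without any 1 of the 4 libraries. The other 8 of the 9 ATF4-target calls held under all 11 alternatives, and IARS1 was lost without 3 of the 4 libraries. Of the 7 ATF4 targets whose window held TGATGNAA, 5 rose, and the other two were NARS1 and TARS1. All 3 ATF4 targets whose window lacked these letters, EPRS1, SARS1 and WARS1, rose.

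**Figure D4:**
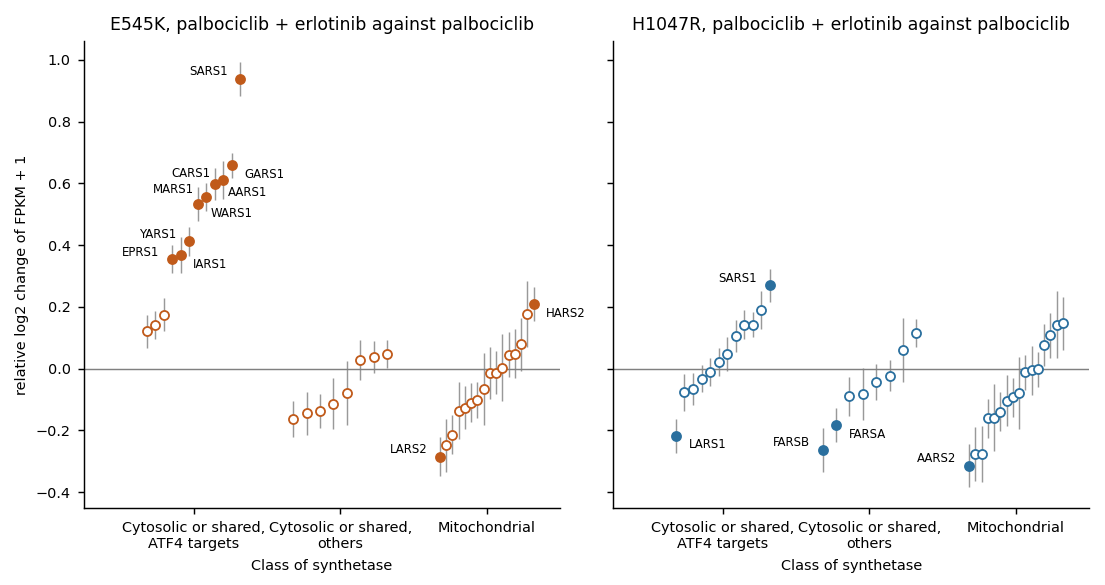
Relative log2 change with SE of each member on adding erlotinib to palbociclib in E545K (left) and H1047R cells (right), by class, with filled points for limma adjusted p below 0.05. In E545K cells all 12 ATF4 targets lie above 0 and 9 are called, while in H1047R cells SARS1 alone is called higher.

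The wider ATF4 and amino acid supply list moved with them, 22 of the 27 tested genes rising and 1 falling in E545K cells. For this and the next lists, the shares of all genes tested were 7.1% higher and 9.11% lower before scaling. ASNS, which makes asparagine, was at 137 FPKM with erlotinib, against 55.6 FPKM in palbociclib alone. CHAC1 was at 49.4 FPKM with erlotinib, against 19.8 FPKM in palbociclib alone, and PSAT1, of serine synthesis, at 172 FPKM with erlotinib, against 84.4 FPKM in palbociclib alone. ATF4 was at 400 FPKM with erlotinib, against 260 FPKM in palbociclib alone, and DDIT3 at 67.1 FPKM with erlotinib, against 37.8 FPKM in palbociclib alone. Of the 13 charging partners 1 rose, XPOT, the exporter of tRNA from the nucleus, at 64.9 FPKM with erlotinib, against 41.7 FPKM in palbociclib alone. Of the 7 eIF2 kinases and phosphatase subunits 0 were called in limma (1 higher at an unadjusted p below 0.05). Of the mitochondrial translation factors 1 rose and 1 fell (1 and 0 under either scaling), and of the interferon gamma genes 2 rose and 2 fell (1 and 2 after quantile normalization). Of the 6 cytosolic elongation factors 5 rose and 1 fell.

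In H1047R cells with erlotinib 1 member was called higher (2.8%, against 3.01% of all genes tested) and 4 lower (11.1%, against 6.35% of all genes). SARS1 rose to 202 and 201 FPKM with erlotinib, against 177 and 165 FPKM in palbociclib alone (0.27, limma adjusted p 0.0347). AARS2 fell to 4.90 and 4.54 FPKM with erlotinib, against 6.33 and 6.23 FPKM in palbociclib alone (-0.31, limma adjusted p 0.0206). FARSB, the other subunit of the phenylalanine enzyme, fell to 30.0 and 29.4 FPKM with erlotinib, against 39.7 and 34.1 FPKM in palbociclib alone (-0.26, limma adjusted p 0.0356). LARS1 fell to 75.7 and 75.6 FPKM with erlotinib, against 86.1 and 94.7 FPKM in palbociclib alone (-0.22, limma adjusted p 0.0262), and FARSA was the fourth. The libraries did not overlap in these genes. SARS1 was lost under 5 of 11 alternatives, and leaving out 1 library gave 0 to 2 higher and 0 to 9 lower. Centring and quantile normalization each gave 1 higher and 1 lower. Of the ATF4 and supply genes 5 rose and 1 fell.

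The change with added erlotinib differed between the lines for ATF4-target synthetases, with the same limit on treatment time. In H1047R minus E545K, 0 members were higher (also 0 at an unadjusted p below 0.05, and 0.899% of all genes tested) and 9 lower in limma (25.0%, against 1.27% of all genes). The 9 were all ATF4 targets, namely SARS1, MARS1, GARS1, AARS1, WARS1, IARS1, CARS1, LARS1 and EPRS1. The log2 difference was -0.55 for GARS1 (limma adjusted p 0.00513), -0.52 for AARS1 (0.0148) and -0.52 for WARS1 (0.0175). Of the 27 ATF4 and supply genes 0 were higher and 15 lower in limma. The count fell to 5 with the replicate number as a block. It was 1 to 3 without any 1 of the libraries in the combination or of E545K cells in palbociclib, and 9 or more without either H1047R palbociclib library.

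The levels of H1047R cells in the second table are described here without a test, beside those of E545K cells with erlotinib given above. In palbociclib alone, GARS1 and AARS1 in H1047R cells lay nearer to the levels of E545K cells with erlotinib than to those of E545K cells in palbociclib alone, and WARS1 lay above both. GARS1 was at 202 and 200 FPKM in H1047R cells in palbociclib alone, and AARS1 at 107 and 113 FPKM. WARS1 was at 249 and 235 FPKM in those libraries and at 251 and 237 FPKM with erlotinib. GARS1 was at 215 and 219 FPKM and AARS1 at 115 and 117 FPKM with erlotinib in that line. ASNS was at 118 FPKM in H1047R cells in palbociclib alone, against 55.6 FPKM in E545K cells in palbociclib alone. In the first table, by contrast, ASNS was at 54.0 FPKM in H1047R cells in palbociclib and at 83.5 FPKM in E545K cells in palbociclib.

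The level of a cytosolic enzyme over that of the mitochondrial enzyme for the same amino acid varied between groups for some pairs more than others. Among group means of the first table, VARS1 to VARS2 lay between 3.68 and 4.57, and RARS1 to RARS2 between 3.54 and 4.88. CARS1, AARS1 and WARS1 were picked after their values were seen, and their ratios covered wider ranges. EPRS1 to PARS2, for proline, covered a wider range than these 3, from 100 in WT cells in DMSO to 9.63 in H1047R cells in palbociclib. That range rests on a low PARS2 mean of 0.525 FPKM in WT cells in DMSO. The ratio of CARS1 to CARS2 was 1.50 in E545K, 1.30 in H1047R and 3.56 in WT cells in palbociclib. It was 1.61 in E545K, 1.07 in H1047R and 1.42 in WT cells in CM, and 3.55, 1.96 and 6.38 in those lines in DMSO. AARS1 to AARS2 was 8.91 in WT cells in CM, against 38.9 in DMSO, mainly through AARS2. WARS1 to WARS2 went the other way, at 55.0 in H1047R, 32.9 in E545K and 31.7 in WT cells in palbociclib, against 21.4, 19.6 and 18.0 in DMSO. Across the 10 direct comparisons, the median change of cytosolic members minus that of mitochondrial members ran from -0.26 in H1047R against WT cells to 0.20 for erlotinib in E545K cells. It was -0.16 for CM in WT cells and 0.07 in E545K cells. Between replicate libraries the SD of this difference was 0.07 (first table) and 0.06 (second table).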

How the data were processed

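The authors deposited 2 tables of FPKM, per the file headers, with 1 column for each library. The submitters' processing notes name RSEM 1.3.1, DESeq2 1.4.5, HISAT2 2.1.0 and Bowtie2 2.3.4.3, with no role or order, and the human build GRCh38. DESeq2 was not used here, since the deposited values are not counts. Low values were whole multiples of a common step in 61.7% and 58.3% of cases (within 0.15 of a multiple), so reads were not recovered, depth is unknown, and no interval from counts is given.

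From the FPKM, log2(FPKM + 1) was fitted with limma 3.58.1 in R 4.3.3, with 1 coefficient per group, an intensity trend and all libraries of a table, over genes with at least 1 FPKM in 2 libraries. Each table was fitted apart, and p-values were adjusted over all genes tested. The fit was tested on simulated data. Alternatives were a pseudocount of 0.1, no filter, quantile normalization, median-centring, a TPM scale, only the groups compared, the replicate number as a block, and each library left out. The replicate numbers do not pair the samples: deviations of same-numbered libraries correlated at -0.56 to 0.55 between groups. Members and lists were chosen with earlier results of these data known. Per-library values are given for WARS1, AARS1, GARS1, KARS1, the highest and lowest mean of each compartment, and, in each direct comparison, up to 3 called members with the largest relative change in each direction. Transcript lengths came from GENCODE 29 and promoter windows from RefSeq. Figures were drawn with matplotlib 3.10.9. The values of some listed genes are not reported here.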

Additional observations from a re-analysis of the deposited data

Results flagged for a closer look

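These results are listed because a mutant line's response differed from another line's in a test of the difference itself (limma, adjusted p below 0.05). For palbociclib, the difference was higher for 6 members and lower for 1 in E545K minus WT, and higher for 4 and lower for 6 in H1047R minus WT. For CM, it was higher for 7 and lower for 16 in E545K minus WT, and higher for 3 and lower for 22 in H1047R minus WT. For added erlotinib, it was lower for 9 in H1047R minus E545K.

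Among the members followed in every comparison, the log2 difference of the palbociclib response for GARS1 was 0.36 in E545K minus WT and 0.39 in H1047R minus WT. For CM in E545K minus WT it was 0.41 for WARS1, 0.48 for AARS1, 0.56 for GARS1 and -0.50 for KARS1. For CM in H1047R minus WT it was -0.71 for WARS1 and 0.36 for GARS1. For erlotinib in H1047R minus E545K it was -0.52 for WARS1, -0.52 for AARS1 and -0.55 for GARS1. The KARS1 difference passed under 14 of 15 alternatives and had an adjusted p of 0.0951 after centring. The palbociclib differences of GARS1 each passed under 8 of 15 alternatives, and those of WARS1 and AARS1 for erlotinib under 9 of 15.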

How the results depend on the processing

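Of 315 counts and compartment differences under the 7 alternatives that keep all libraries, 262 stayed within 1.5 times (counts) or 1 SD (differences) of the reported value. A difference within 1 SD was counted whatever its sign. The 262 were 44 of 45 with a pseudocount of 0.1, 43 without the filter, 27 after quantile normalization and 31 after median-centring. They also held 40 on the TPM scale, 34 with only the groups compared and 43 with the replicate block. Unless stated, the cause of a change was not tested. Read depth is unknown, so counting error cannot be given for low members such as PARS2 and WARS2.

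For E545K against WT, 24 higher became 14 (quantile) and 9 (centring), and 2 lower became 7 (centring) and 1 (TPM). For H1047R against WT, 23 higher became 13 and 4 lower became 9 (centring). For palbociclib in WT cells, 9 higher became 4 (quantile), 3 (centring) and 17 (only the groups compared). In E545K cells 2 lower became 4 (quantile), 7 (centring), 4 (TPM) and 4 (only the groups compared). In H1047R cells 6 higher became 1 (only the groups compared) and 4 lower became 7 (quantile) and 0 (only the groups compared). For CM in E545K cells, 23 higher became 15 (centring) and 3 lower became 1 (TPM). In H1047R cells 11 higher became 3 (only the groups compared), and 1 lower became 3 (quantile) and 0 (only the groups compared).

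For the palbociclib difference of H1047R minus WT, 4 higher became 2 (quantile), 8 (centring), 2 (TPM) and 0 (only the groups compared), and 6 lower became 1 (centring) and 0 (only the groups compared). For the CM difference of E545K minus WT, 16 lower became 9 (quantile) and 6 (centring). For H1047R minus WT, 3 higher became 5 (centring), and 22 lower became 14 (quantile) and 9 (centring). For erlotinib in E545K cells, 1 lower became 2 (centring), 3 (TPM) and 6 (only the groups compared). In H1047R cells 1 higher became 0 without the filter, 0 with only the groups compared and 0 with the replicate block, and 4 lower became 2 (no filter), 1 (quantile), 1 (centring) and 0 (only the groups compared).

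The replicate numbers do not pair the samples, and with the replicate number as a block the 9 lower members of the erlotinib difference became 5. Of the other counts and compartment differences, the block moved the H1047R count given above and none of the rest beyond these limits.

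The cytosolic minus mitochondrial median change after quantile normalization was 0.13 for E545K against WT (0.01 as reported), -0.029 for H1047R against WT (-0.26), 0.093 for palbociclib in E545K (-0.03, a reversal), -0.20 in H1047R (-0.11), -0.035 for CM in WT (-0.16) and 0.26 for erlotinib in E545K (0.20). For the differences between responses it was 0.0017 for palbociclib in H1047R minus WT (0.32), 0.029 for CM in H1047R minus WT (0.19, and 0.27 with a pseudocount of 0.1) and -0.30 for erlotinib (-0.20). KARS1 in E545K against WT went to -0.013 after centring (0.28 as reported). RARS1 in H1047R against WT, called higher at 0.17, was called lower after centring at -0.17, the one member called in opposite directions under any alternative.

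Leaving out each library in turn gave, for members lower in E545K against WT, 0 to 2. For palbociclib it gave 3 to 5 lower in WT, 1 to 2 lower in E545K, and 6 to 10 higher and 0 to 6 lower in H1047R, with a compartment difference of -0.20 to -0.019. For CM it gave 1 to 2 lower in E545K, and 4 to 6 higher and 0 lower in H1047R. For the palbociclib difference it gave 3 to 5 higher in E545K minus WT, and 0 to 7 higher and 2 to 8 lower in H1047R minus WT, with a compartment difference of 0.24 to 0.35. For the CM difference it gave 10 to 15 lower in E545K minus WT. For erlotinib it gave 0 lower in E545K, and 0 to 2 higher and 0 to 9 lower in H1047R. For the erlotinib difference it gave 1 to 12 lower, with a compartment difference of -0.29 to -0.18.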

Other observations

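H1047R cells labelled for palbociclib alone differed between the 2 tables, whose values were normalized per library but fitted apart, so the levels are set side by side with no test. GARS1 was at 202 and 200 FPKM in the second table, and at 131 and 112 FPKM in the first. WARS1 was at 249 and 235 FPKM in the second, and at 165 and 163 FPKM in the first. E545K cells in palbociclib had 134 and 131 FPKM of GARS1 in the second table, and 153 and 146 FPKM in the first. How long the second-table cells were in palbociclib is not given in the sources used here.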
